A study of Mus musculus with 2 samples.

Results

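The genes described here encode the machinery of the chemical synapse: 41 genes for synaptotagmins, SNARE proteins and complexins, synaptic vesicle proteins, active zone scaffolds, vesicular transmitter transporters, and the neurexins, neuroligins and scaffold that hold the synapse together. They were chosen by name, for their role at the synapse, with earlier results of these data known. All 41 were found on the array by the gene name given for a probe, 1 of them (Dlg4, which encodes PSD-95) by an older symbol only, among 19108 named genes. They were read by 85 probes of 41043.

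RNA from R1, a line of mouse embryonic stem (ES) cells, was labelled with Cy3 and read on 2 one-colour Agilent expression arrays. The day 0 array held undifferentiated ES cells, which per the labels were kept on mitotically inactivated fibroblasts in DMEM with 15% serum and leukaemia inhibitory factor at 1000 U/ml. The day 6 array held embryoid body cells from direct neural differentiation, which the labels also call neural precursors. Both arrays came from the same line, with no genetic change named in the labels. Each group had 1 array, so no test was possible, no difference has a replicate check, and a difference between these arrays is not shown to be one between the conditions.

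At a chemical synapse, vesicles are filled with transmitter by transporters, docked at the active zone, and fused with the plasma membrane when calcium enters. Fusion is driven by SNARE proteins on the vesicle and on the target membrane, calcium is sensed by synaptotagmins, and complexins clamp and assist the assembled SNAREs. Neurexins on the presynaptic side bind neuroligins on the postsynaptic side and align the contact. Many of these genes are known as markers of differentiating neurons, while several relatives also serve secretion in other cells.

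The array reads each gene with probes of 60 bases. Probe sequences are printed for 4 members whose reading is central to the results: both neurexin 2 probes and both Rab3c probes, which overlap, and the probes of the scaffold gene Pclo and the glutamate transporter gene Slc17a6. The sequences are those of the scanner files, 5′ to 3′, with positions in the mouse build mm7, and capitals mark the bases that a pair of probes shares. Each has an open reading frame over its length. Gene models of mm7 were not used here, so exon numbers are not given.
Nrxn2, chr19:6427387-6427446, plus strand: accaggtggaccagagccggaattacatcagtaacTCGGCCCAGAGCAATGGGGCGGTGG
Nrxn2, chr19:6427422-6427481, plus strand: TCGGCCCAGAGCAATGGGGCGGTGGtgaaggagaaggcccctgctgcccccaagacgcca
Rab3c, chr13:107232790-107329573, minus strand: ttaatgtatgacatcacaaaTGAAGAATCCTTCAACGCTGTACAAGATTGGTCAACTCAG
Rab3c, chr13:107232770-107329553, minus strand: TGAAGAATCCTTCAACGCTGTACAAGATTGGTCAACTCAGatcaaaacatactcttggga
Pclo, chr5:14276673-14276732, plus strand: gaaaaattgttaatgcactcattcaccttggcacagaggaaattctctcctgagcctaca
Slc17a6, chr7:47901886-47901945, plus strand: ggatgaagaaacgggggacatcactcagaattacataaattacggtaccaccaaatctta
The positions of both Rab3c probes span far more than 60 bases, so the bases of each probe are not contiguous in mm7. Whether an intron lies between them was not checked against gene models. Of the 84 member probes with a position, 14 spanned more than 60 bases, by widely different lengths.

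Intensities below are the scanner software's processed signals in arbitrary units, which can be compared for a probe between the arrays but not between probes. For a difference, each intensity was divided by the 75th percentile of its array, 3758 on day 0 and 4388 on day 6, and the log2 values were subtracted, day 6 minus day 0. The fold therefore differs from the ratio of the raw intensities. A gene was called higher or lower where the scaled values were at least 2-fold apart. Where only 1 array was well above background, only a lower limit of the fold can be given. It is written "at least" and sets the bright array against the higher of the lowest intensity well above background (102 on day 0, 85.2 on day 6) and the dim probe's own value. The limit holds for this processing and changes with the background correction, as given for some genes below. Each gene is given by its brightest usable probe.

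The genes of release were mostly higher on day 6 or within 2-fold, and few were lower. Of the 41 members, 37 were well above background on at least 1 array, and 16 of these (43.2%) were at least 2-fold higher on day 6, 4 of them by a bound. Among all 14713 genes measured the same way, 17.8% were at least 2-fold higher. Only 2 members (5.41% of those measured), Syt9 and Rims1, were at least 2-fold lower, against 20.0% of all genes, and 19 were within 2-fold. At 4-fold, 10 of the 37 measured members were higher and 2 (5.41%) were lower. Of all 14713 genes, 1080 (7.34%) were higher and 1228 (8.35%) lower. However, 5 members were 4-fold higher with normexp background correction and 5 with no background subtraction. The 4-fold shares of all genes under these alternatives are not given here. The median difference of the measured members was 0.82 on the log2 scale, against -0.09 over all genes, and single members ran from -3.35 (Syt9) to 4.98 (Cplx2).

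A further feature was the number of members seen on day 6 only. By the probe that stands for the gene, 26 of the 37 measured members passed the background on both arrays, 11 (29.7%) on day 6 only and 0 on day 0 only. Over all measured genes these last shares were 8.01% and 5.32%. The 4 members not well above background on either array were Syt2, Bsn, Slc17a7 and Dlg4, for which no fold is given. No member probe was saturated.

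**Figure D1:**
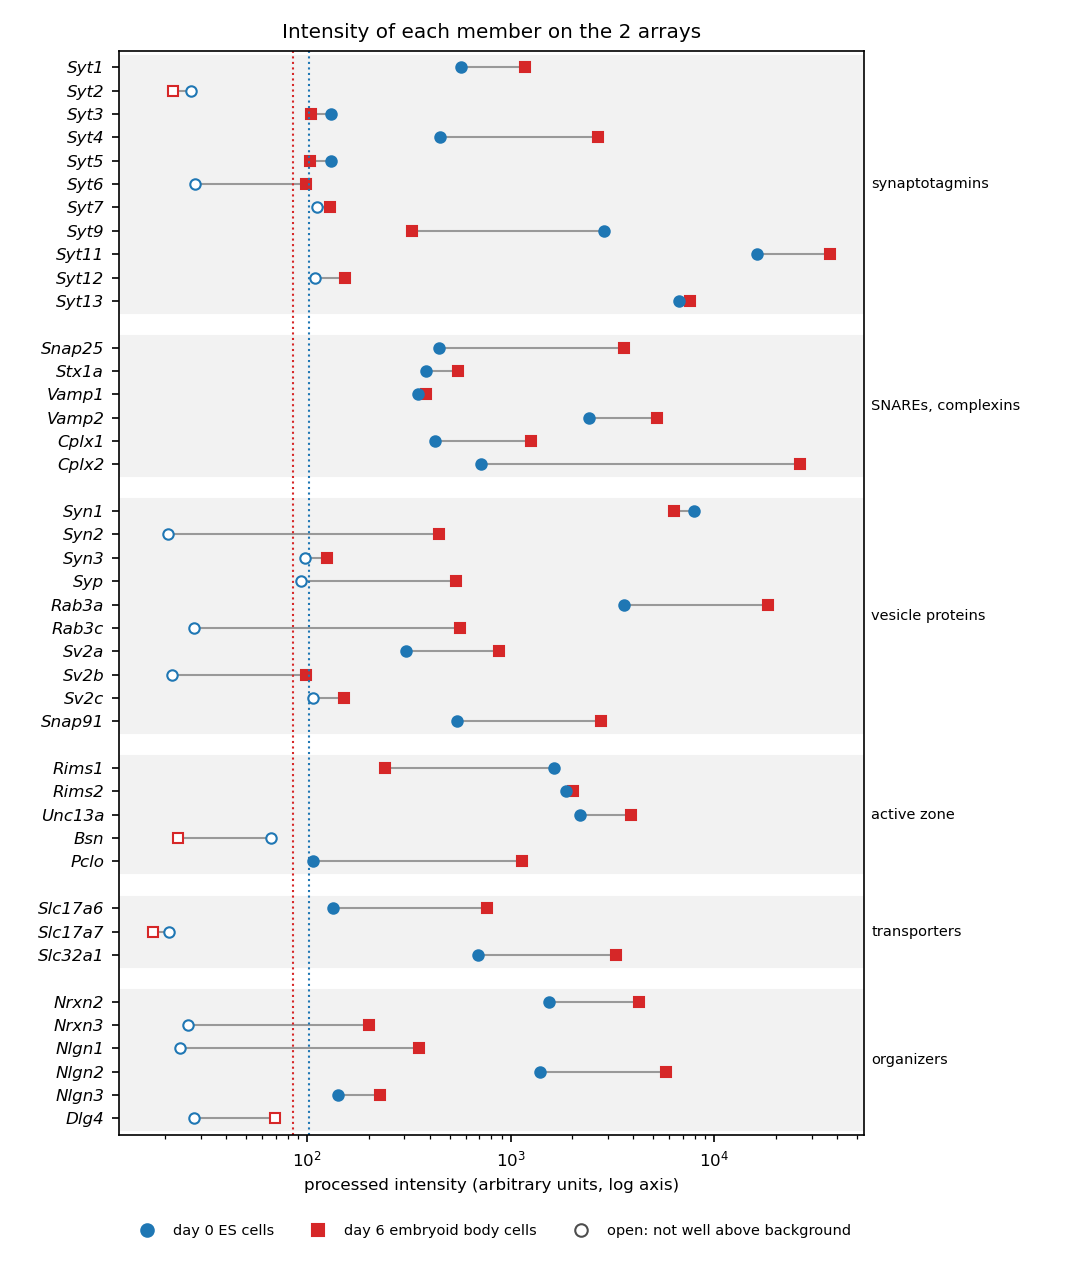
Processed intensity of each of the 41 members on the day 0 array (blue circles) and the day 6 array (red squares), in arbitrary units on a log axis, grouped by role, with open symbols where the probe was not well above background and dotted lines at the lowest intensity well above background on each array (102 on day 0, 85.2 on day 6). Cplx2 spans the widest distance, from 716 to 26309.8, and Syt9 and Rims1 are the members whose day 6 symbol lies far to the left of the day 0 symbol.

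The cultures differed in the markers of several cell types. All 7 measured ES cell markers were at least 2-fold lower on day 6, and Pou5f1, the core pluripotency factor, went from 41679 to 302. Of 8 neuronal markers, 5 were at least 2-fold higher and 0 lower, and their summed intensity went from 114993 to 337970. Sums here and below add unscaled intensities of different probes, so the brightest probes weigh most and the sums are only a rough guide. Tubb3, which encodes neuronal tubulin, went from 11238 to 41456, and Dcx, a microtubule protein of young neurons, from 97.9, not well above background, to 11170.0. Of 7 measured neural progenitor markers, 5 were higher, and their sum went from 38366 to 344847. Of 10 fibroblast markers, 5 were lower and 1 higher, with a sum of 127930 on day 0 and 29309 on day 6, and the collagen gene Col1a1 went from 46224 to 2699.7. Whether the feeder fibroblasts were removed before the day 0 RNA was taken is not stated in the labels. Of 8 measured markers of endocrine and neuroendocrine cells, which also release by SNAREs, 3 were higher and 0 lower, with sums of 11750 and 46240, while of the hormone genes Gcg and Ins1 stayed near background on both arrays and Ins2 read 484 and 913 (0.69). Of 8 measured glial markers, 5 were higher, with sums of 5022 and 12710, and Gfap stayed near background on both arrays. Of 7 measured endothelial and blood markers, 4 were lower and 2 higher, the embryonic globin genes Hbb-bh1 (33.4 and 2018, at least 16.9-fold) and Hba-x (22.2 and 1554, at least 13-fold), with sums of 3354 and 4623. Of 4 measured muscle markers, 1 was lower and 0 higher, with sums of 8383 and 3399. The part of each cell type in the members' differences was not tested. In bulk RNA, more cells of a type and more RNA of a gene per cell cannot be told apart.

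Among synaptotagmins, the calcium sensors and their relatives, the family split: of 10 measured members, 1 was at least 2-fold higher, 1 lower and 8 within 2-fold, with a median difference of 0.00. Syt4, whose first C2 domain lacks a residue needed to bind calcium, read 450.1 on day 0 and 2671 on day 6. This was 5.08-fold higher (2.35 ± 0.22 on the log2 scale, software SD), and its second probe gave 2.38. Syt9, a calcium sensor of fast release in some neurons and of secretory granules, read 2851 on day 0 and 327 on day 6 at chr7:103444918-103444977 (mm7, plus strand). It was 10.2-fold lower (-3.35 ± 0.22), the largest fall of the 37 measured members, and rests on 1 probe. The software SD is that of the scanner's error model for a difference, not the variation between cultures, and ran from 0.20 to 0.42 for members well above background on both arrays.

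Syt1, the main sensor for synchronous release in forebrain neurons, read 567 on day 0 and 1168 on day 6, a difference of 0.82 that stayed within 2-fold. Of its 5 probes, a dimmer one read 317 and 741 and lay at 2-fold, another passed the background on day 6 only (30.2 and 137), and the other two did not pass it. Syt11, a relative of Syt4 without calcium binding, read 16264 and 36993, a difference of 0.96, just inside 2-fold. Its 5 probes ran from 0.23 to 2.73, and the gene passed 2-fold under 4 of 13 processing alternatives (1.04 to 1.18).

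The remaining synaptotagmins showed small differences or dim signals. Syt13, which lacks calcium binding, read 6673 and 7577, a difference of -0.04. Syt3 read 131 and 104 (-0.55) and Syt5 read 130.1 and 103 (-0.56), both calcium-binding members just above background on both arrays. Syt12 read 109, not well above background, on day 0 and 153 on day 6, at least 1.21-fold higher. Syt6 read 28.0, not well above background, and 99.0, too low for a fold. Syt7, a slow sensor of asynchronous release, had probes that went opposite ways. Its brightest probe read 112, not well above background, and 129, too low for a fold, another (21.7 and 153) was at least 1.28-fold higher, and the last one passed the background on day 0 only (113 and 58.0), at least 1.55-fold lower. Syt2, the fast sensor of the hindbrain and neuromuscular junction, read 26.8 and 21.8, not well above background on either array.

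Among SNAREs and complexins, 3 of 6 were higher by 2-fold or more and 0 lower, with a median of 1.12. The shares over all measured genes were 17.8% and 20.0%. All 6 were well above background on both arrays. Cplx2, a complexin, read 716 on day 0 and 26309.8 on day 6 at chr13:53468105-53468164 (mm7, plus strand). It was 31.5-fold higher (4.98 ± 0.21), the largest rise of the 37 measured members. Its 3 other probes gave 3.18 (579.8 and 6154), a bound of 3.70 (35.7 and 1553) and a bound of 0.74 (34.3 and 199), so all 4 probes read higher on day 6 but with different sizes. Cplx1, the other complexin, read 424 and 1259 and was 2.54-fold higher (1.35 ± 0.22).

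Snap25, a SNARE of the presynaptic plasma membrane, read 446 on day 0 and 3581 on day 6. It was 6.88-fold higher (2.78 ± 0.22). A probe sharing 40 bases with this one read 127 and 3193, a difference of 4.43, and the third probe gave a bound of 1.30. All 3 Snap25 probes were higher by at least 2-fold, and the overlapping pair differed by 1.64 on the log2 scale.

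The partners of Snap25 in the fusion complex were within 2-fold. Stx1a, the syntaxin of the plasma membrane, read 382 and 551, a difference of 0.31. Vamp2, the vesicle SNARE synaptobrevin 2, read 2416 and 5222 (0.89), and its other probes, which share 50 bases, gave 0.49 and 0.53. Vamp1, the other synaptobrevin, read 351 and 384 (-0.09).

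Among vesicle proteins, 6 of 10 passed 2-fold upward and 0 downward, with a median of 1.59, against 17.8% and 20.0% of all measured genes. The background was passed on day 6 only by 6 of the 10, against 8.01% of all measured genes. Rab3a, the GTPase that accompanies vesicles to the active zone, read 3595 on day 0 and 18229 on day 6. It was 4.34-fold higher (2.12 ± 0.20). Rab3c, a close relative, read 27.9, not well above background, and 561, at least 4.70-fold higher. This bound of 2.23 on the log2 scale was 1.33 with normexp background correction and 1.21 with no background subtraction. The overlapping Rab3c probe printed above read 22.0, not well above background, and 425, at least 3.56-fold higher.

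Syp encodes synaptophysin, an abundant vesicle membrane protein. It read 92.9, not well above background, on day 0 and 537 on day 6, at least 4.50-fold higher. This bound of 2.17 on the log2 scale was 1.55 with normexp background correction and 1.44 with no background subtraction. Snap91, the clathrin adaptor AP180 of vesicle retrieval, read 541 and 2767 and was 4.38-fold higher (2.13 ± 0.21). Its second probe stayed near background on both arrays. Sv2a, a vesicle glycoprotein, read 306 and 878 and was 2.46-fold higher (1.30 ± 0.23), while its other probe gave a bound of 0.04 (70.2 and 122), so the size of its difference depends on the probe. The related Sv2c read 107, not well above background, and 151, at least 1.21-fold higher, by a probe under an older symbol. The probe under the name Sv2c read 21.9 and 17.9, not well above background on either array. Sv2b, also related, read 21.6, not well above background, and 98.4, too low for a fold.

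The synapsins, phosphoproteins that tether vesicles to the cytoskeleton, did not move together. Syn2 read 20.6, not well above background, on day 0 and 442 on day 6, at least 3.70-fold higher. Its other usable probe read 23.5, not well above background, and 153, a bound of 0.36 on the log2 scale. A brighter Syn2 probe was left out because its day 0 spot carried an outlier mark, and it read 193 and 323. With outlier spots kept, an alternative chosen after seeing the data, this probe stood for the gene at 1.44-fold (0.53), and the call was lost. Syn1 read 7898 and 6309, a difference of -0.55, within 2-fold. A second Syn1 probe read 348 and 178 (-1.19), 2.28-fold lower, and 2 more were not well above background. Syn3 read 97.4, not well above background, and 125, at least 1.05-fold higher. Of the 3 synapsin genes, Syn2 alone was called.

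**Figure D2:**
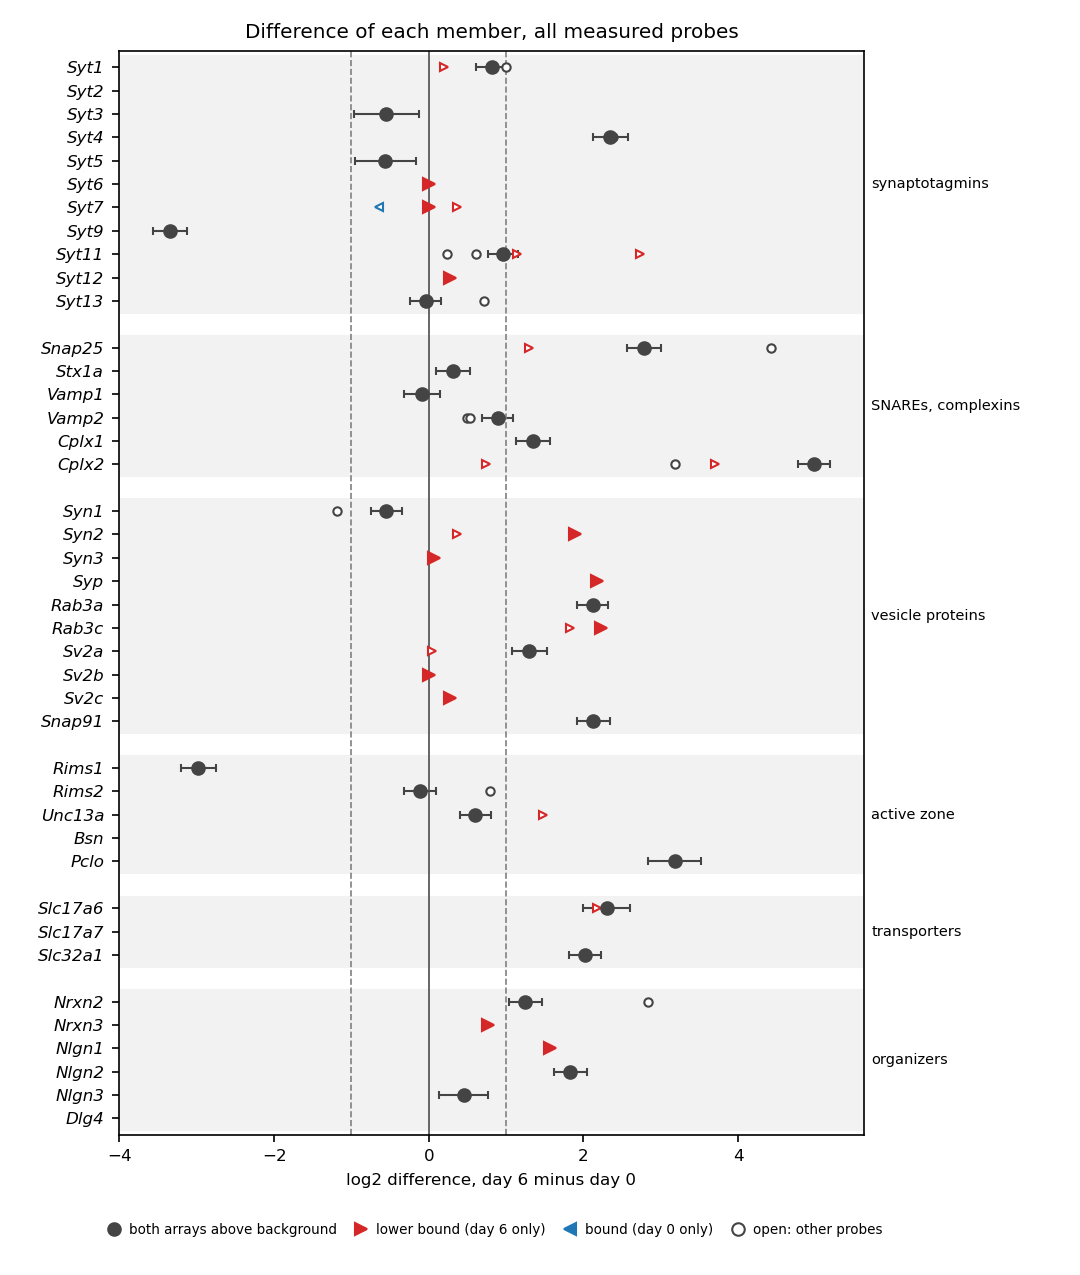
Log2 difference, day 6 minus day 0, of every usable probe of each member, with filled symbols for the probe that stands for the gene and open symbols for its other probes. Circles are probes well above background on both arrays, the filled ones with bars of 1 software SD and the open ones drawn without bars. Triangles are bounds, and dashed lines mark 2-fold. The filled symbols of Syt9 and Rims1 lie left of the lower line, and the probes of Cplx2, Snap25 and Syt11 are spread over more than 2 log2 units.

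Of 4 measured active zone genes, 1 was at least 2-fold higher, 1 lower and 2 within 2-fold, with a median of 0.25. These shares of 25.0% each way rest on 4 genes and lay near the 17.8% and 20.0% of all measured genes. Pclo, which encodes the giant scaffold Piccolo, read 107 on day 0 and 1133 on day 6 with the probe printed above. It was 9.09-fold higher (3.18 ± 0.34). The day 0 value lay just above the lowest intensity well above background, 102. The Pclo difference was 2.36 with normexp background correction and 2.26 with no background subtraction. The other Pclo probes, at chr5:14336407-14336466 and chr5:14340709-14340768, read 24.9 and 25.2 on day 0 and 20.2 and 20.5 on day 6, not well above background. Bsn, which encodes the partner scaffold Bassoon, read 66.6 and 23.2, not well above background on either array.

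Rims1, a scaffold that binds Rab3 on vesicles and calcium channels, read 1625 on day 0 and 239.6 on day 6 at chr1:22482217-22482276 (mm7, minus strand). It was 7.92-fold lower (-2.98 ± 0.23). The gene's other probe, at chr1:22749732-22749791, read 56.0 and 55.3, not well above background. With probes named by accession in place of the file's gene name, only that other probe was left and Rims1 had no value. Its relative Rims2 read 1867 and 2023, a difference of -0.11, with 0.79 from its second probe. Unc13a, the priming factor Munc13-1, read 2183 and 3876 (0.60), and its second probe gave a bound of 1.48.

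Both measured vesicular transporter genes were higher, with a median of 2.16. Slc17a6, the vesicular glutamate transporter VGLUT2, read 133 on day 0 and 764 on day 6 and was 4.92-fold higher (2.30 ± 0.30). The difference was 1.75 with normexp background correction and 1.61 with no background subtraction. The dimmer Slc17a6 probe printed above read 38.6 and 536, with a bound of 2.17. Slc32a1, which loads GABA and glycine, read 692 and 3274 and was 4.06-fold higher (2.02 ± 0.21). Slc17a7, VGLUT1, read 20.9 and 17.4, not well above background on either day. The pair that was measured thus holds a glutamate transporter gene and the transporter gene of inhibitory vesicles, both higher on day 6.

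Of the trans-synaptic organizers, 3 of 5 measured were at least 2-fold higher and 0 lower, with a median of 1.25. The shares over all measured genes were 17.8% and 20.0%. Nrxn2, a neurexin, read 1542 on day 0 and 4275 on day 6 and was 2.37-fold higher (1.25 ± 0.21). The other Nrxn2 probe, which has 25 bases in common with it, read 395 and 3286, a difference of 2.83. Nrxn3 read 26.0, not well above background, and 202, at least 1.69-fold higher. The other Nrxn3 probes read 20.8 and 20.7 on day 0 and 17.3 and 17.6 on day 6, not well above background. Both Nrxn2 probes passed 2-fold, at sizes 1.59 log2 units apart.

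Nlgn2, the neuroligin of inhibitory synapses, read 1397 on day 0 and 5792 on day 6 and was 3.55-fold higher (1.83 ± 0.21). Nlgn1, the neuroligin of glutamatergic synapses, read 23.8, not well above background, and 355, at least 2.97-fold higher. This call was lost without background subtraction (0.92 on the log2 scale). The second Nlgn1 probe read 21.8 and 18.5, not well above background on either array. Nlgn3, found at both kinds of synapse, read 142 and 228, a difference of 0.45. Dlg4, the postsynaptic scaffold PSD-95, read 27.7 and 69.4, not well above background on either array.

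Overlapping probes of most genes gave nearly the same difference, which those of Nrxn2 and Snap25 did not. Over all genes, 208 pairs of probes in 205 genes shared at least 20 bases and were well above background on both arrays, and their differences lay a median of 0.06 log2 units apart, with a 95th percentile of 0.48. Of these pairs, 3 (1.44%) lay more than 1.5 log2 units apart, and the Nrxn2 and Snap25 pairs were among them. Of the 17 members with several measured probes, 3 (17.6%) had probes spread over more than 2 log2 units, Syt11, Snap25 and Cplx2, against 8.35% of 6468 such genes in all. Probes called in both directions were found in 0 of the 17 members and in 59 of the 6468 genes.

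Relatives and partners of the members were followed in 6 lists with 135 further synaptic genes, of which 130 had a probe and 111 were measured. Of these, 34 (30.6%) were at least 2-fold higher and 15 (13.5%) lower, with a median of 0.41. Over all measured genes these shares were 17.8% and 20.0%, with a median of -0.09. Among the close relatives given here, 1 was lower and the rest were within 2-fold by their brightest probe. Rab3b read 2345 and 1093 and was 2.51-fold lower, and Rab3d read 1619 and 2431, a difference of 0.36. Snap23, the widely expressed relative of Snap25, read 18770.1 and 14416 (-0.60), and the transporter gene Slc17a8, VGLUT3, read 157 and 201 (0.13), with a bound of 1.48 from its second probe.

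Each of the 6 lists held genes in both directions. Of 14 measured C2 domain proteins, 4 were higher and 3 lower, from Syt16 at least 4.03-fold higher (45.9 and 482, with a bound of 0.05 on the log2 scale from its lowest probe) to the extended synaptotagmin Esyt3 13.1-fold lower (2457 and 219). Of 24 other SNAREs and fusion factors, 4 were higher and 2 lower, led by Stxbp6 at 3.18-fold higher and by the epithelial syntaxin gene Stx3 at 5.48-fold lower, whose 5 probes ran from -2.45 to 0.22 on the log2 scale. In the same list Nsf, the ATPase that takes SNARE complexes apart, was 2.15-fold lower. Of 19 other vesicle and endocytosis genes, 4 were higher and 3 lower. Synpr, a relative of synaptophysin, was at least 7.69-fold higher and Sncg, a synuclein, 5.25-fold higher. Among them, Sh3gl2, endophilin A1, was 15.4-fold lower (3853 and 292) and Syngr1, a synaptogyrin, 3.67-fold lower.

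The share of genes at least 2-fold higher was 31.2% in the list of the active zone, 45.5% in that of transmitters and 44.4% in that of organizers, above the 16.7% to 28.6% of the other lists. Over all genes it was 17.8%, near the 16.7% of SNAREs and fusion factors and the 21.1% of vesicle and endocytosis genes. The lower share of C2 domain proteins (21.4%) lay near the 20.0% of all genes. Of 16 other active zone genes, 5 were higher and 2 lower, with Cadps, a factor of dense core vesicle priming, at least 16.7-fold higher (84.6 and 1995) and Erc2, a scaffold, 7.65-fold higher (0.96 on the log2 scale from its other usable probe), against 2.53-fold lower as a bound for Lin7b and 2.16-fold lower for Ppfia4. Of 11 transmitter genes, 5 were higher and 1 lower. The vesicular monoamine transporter gene Slc18a2 was at least 21.2-fold higher (95.7 and 2537) and Gad2, which makes GABA, at least 9.51-fold higher, whereas Slc18a1, the monoamine transporter of endocrine cells, was 4.81-fold lower. Of 27 other organizers and postsynaptic genes, 12 were higher and 4 lower, with Cbln1, a ligand of neurexins, 11.2-fold higher (1067 and 13904) and Slitrk6, an adhesion protein, at least 9.63-fold higher. Lrrtm1, a postsynaptic neurexin partner, was at least 5.65-fold lower, and the scaffold gene Dlgap1 at least 4.23-fold lower.

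**Figure D3:**
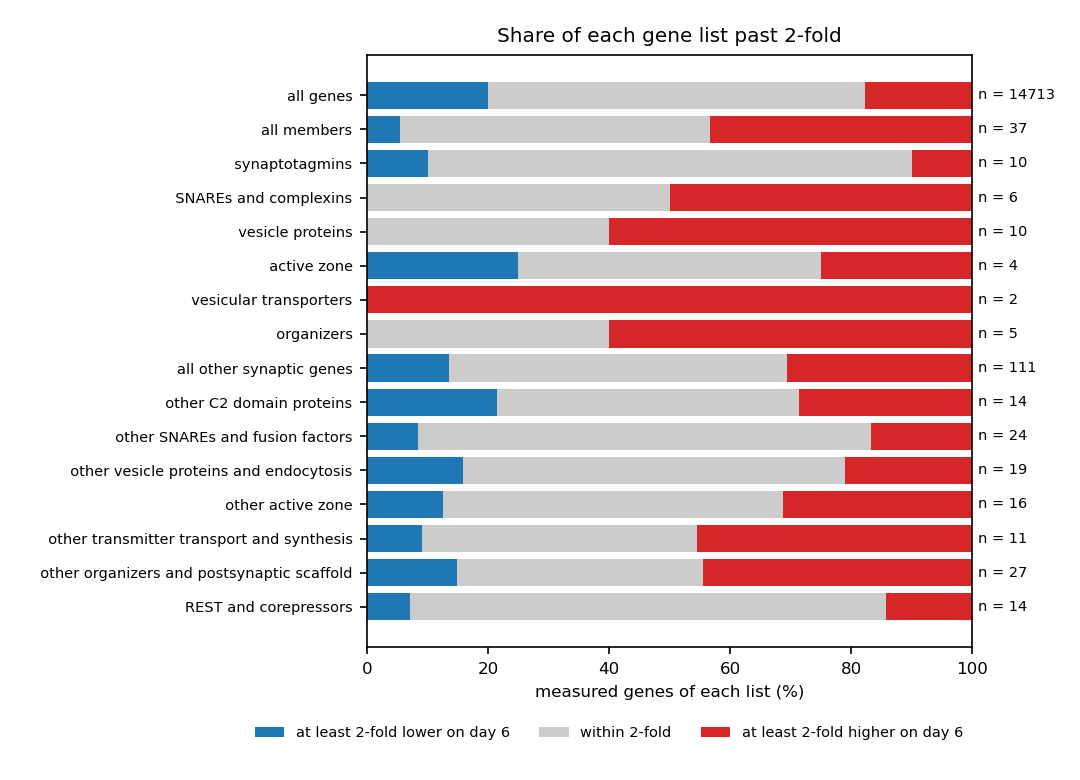
Share of the measured genes of each list that were at least 2-fold lower (blue), within 2-fold (grey) or at least 2-fold higher (red) on day 6, in percent, with the number measured at the right, for all genes, the members and their 6 groups, the further synaptic genes and their 6 lists, and the list of REST and its partners. The members have 43.2% higher and 5.41% lower against 17.8% and 20.0% of all genes, and among the groups of members the vesicle proteins have 6 of 10 higher.

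REST is a zinc finger repressor that binds an element near many neuronal genes, synaptic ones included, in cells that are not neurons. Rest read 68676 on day 0 and 15869 on day 6 and was 5.05-fold lower. Of 14 measured genes of REST and its corepressors, Rest was the only one at least 2-fold lower, and 2 were higher, Rcor3 (2.22-fold) and the phosphatase gene Ctdsp2 (2.03-fold), although 1 of the 3 Ctdsp2 probes read close to 2-fold lower. Whether the level of Rest bears on the members was not tested.

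Promoter sequence, 250 bases before to 50 after each start, was taken from RefSeq (build GRCm38.p6) for the 30 members in the table, which have 45 promoters there. A REST-type element was searched on both strands as CAGCACC, 2 bases of any kind, and GGACAG, with 13 letters compared. Of the 45 promoters, 0 held it exactly and 2 (4.44%) held it with at most 1 mismatch, against 46 of 21263 promoters of protein-coding genes (0.216%). With up to 2 mismatches it was found in 4 (8.89%) and in 440 (2.07%). These are matches of letters, not shown binding sites. The matching stretches belong to a gene called higher and to a gene within 2-fold, and are shown with the element in capitals.
Slc17a6, chr7:51621864-51621878, plus strand, element on the opposite strand, 34 bases after the start: CTGTCCGTGGTCCTG
Syn1, chrX:20921114-20921168, minus strand, element 230 bases before the start: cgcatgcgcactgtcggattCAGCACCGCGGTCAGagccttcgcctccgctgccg
As given above, Slc17a6 was 4.92-fold higher on day 6, and Syn1 read -0.55 on the log2 scale.

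**Figure D4:**
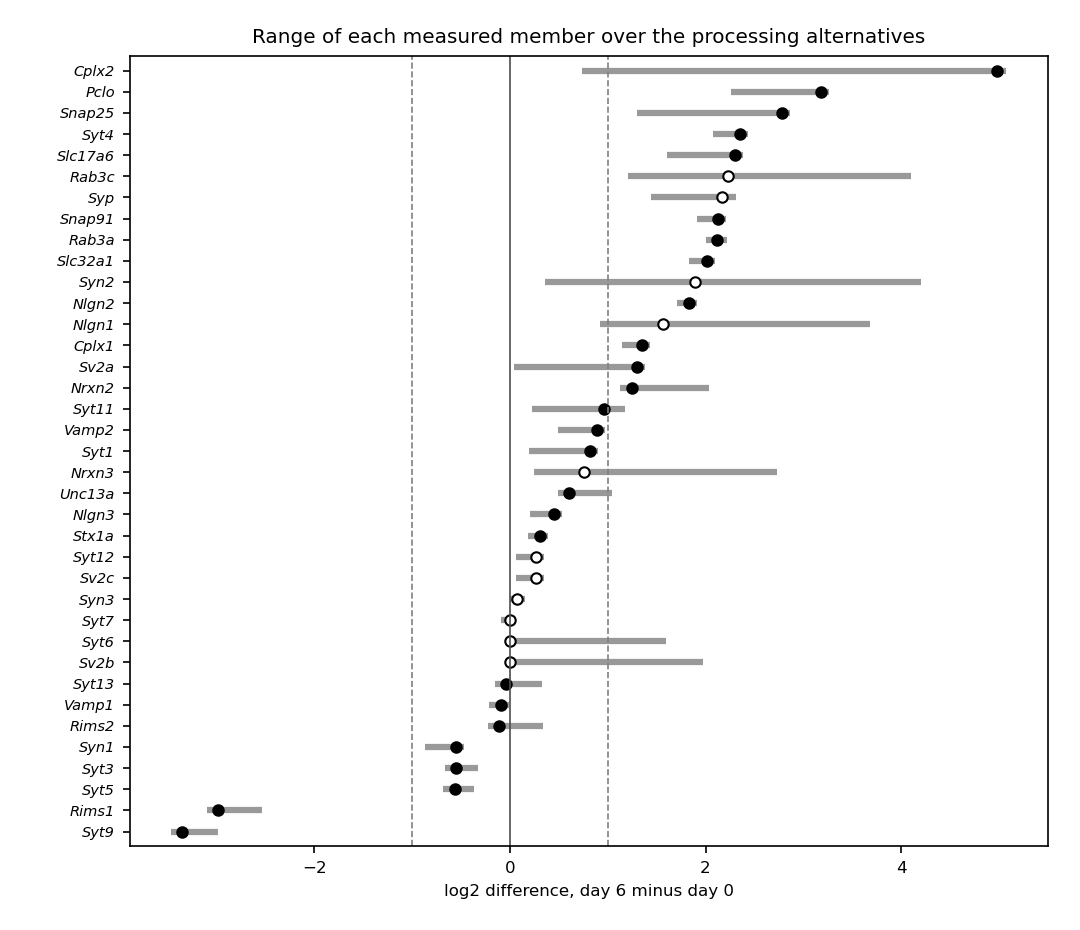
Log2 difference, day 6 minus day 0, of the 37 measured members (points; open where the value is a bound) with the range over 13 processing alternatives (grey bars), ordered by the reported value, with dashed lines at 2-fold. The bars of Cplx2, Syn2, Sv2a and Nlgn1 reach inside 2-fold, and those of Syt9 and Rims1 stay below the lower line.

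The called members were read again under 13 processing alternatives. Of the 18 members at least 2-fold apart, 14 kept their call in every alternative that measured them: Syt4, Syt9, Snap25, Cplx1, Syp, Rab3a, Rab3c, Snap91, Rims1, Pclo, Slc17a6, Slc32a1, Nrxn2 and Nlgn2. The exceptions were Cplx2, at a bound of 0.74 with the probe of smallest difference, Syn2 and Sv2a, whose probes disagreed as given above, and Nlgn1. Of the 19 members within 2-fold, 5 were called in at least 1 alternative: Syt6, Syt11, Sv2b, Unc13a and Nrxn3. No alternative reversed the direction of a called member.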

How the data were processed

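The members and gene lists were chosen with earlier results of these data known. Per the file headers, the deposited scanner files came from Feature Extraction 9.5.3.1 (array design 014868) and hold, per spot, a processed intensity after background subtraction and detrending, with marks for outliers and for spots well above background. A value table that the authors also deposited is on a log2 scale (median 8.53 in both columns). Its differences had a Pearson correlation of 0.995 with those of the scanner files across 23731 probes, which are not independent replicates, and it was used as an alternative. The sources used here do not say how it was made.

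Control spots and outlier spots (186 on day 0, 216 on day 6) were left out, spots of a probe were averaged as log2 intensity, and the 75th percentile of each array was subtracted. A probe was used where well above background on at least 1 array (25246 probes, 61.4%, on day 0 and 26896, 65.4%, on day 6). A gene took the probe with the highest mean log2 intensity. Names are those of the scanner files, and older symbols were matched to a RefSeq table (GRCm38.p6). Of 41043 gene probes, 32202 had a symbol. Of the 85 member probes, 62 had an accession in that table, and 0 of these named another gene. Differences were described by size at 2-fold and 4-fold. All 41 members are named. From the further lists, those with the largest rise and fall past 2-fold (at most 2 each way) and some close relatives of members are named, and some results are not reported here. Both arrays lay on the same slide, where position cannot be told apart from group, and with 2 arrays their number limits precision. Python 3.11.15, pandas 2.3.3, R 4.3.3 and limma 3.58.1 (normexp, offset 50) were used, and the scripts were tested on simulated data.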

Additional observations from a re-analysis of the deposited data

How the results depend on the processing

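Across 13 alternatives (background correction, scaling, the filter on dim probes, the probe rule, naming, the deposited value table and, added after seeing the data, outlier spots kept), the counts and medians below moved, and 0 medians or members past 2-fold changed sign. Among members within 2-fold, Rims2 (from -0.11 to 0.34) and Syt13 (from -0.04 to 0.33) did so when the usable probes were averaged, and Syt13 also turned to 0.01 to 0.04 under some scalings, both other background corrections and the deposited table. Members at least 4-fold higher numbered 10, but 5 with normexp background correction and 5 with no background subtraction. The cause was not tested. With probes named by accession, 33 members were measured and the members lower by 2-fold or more, and by 4-fold or more, numbered 1 each, since Rims1 had no usable probe. The members' median of 0.82 was 0.36 with the probe of smallest difference and 1.25 with measured values in place of bounds, which also took the median of the other synaptic genes to 0.62. With only genes above background on both arrays, 80 other synaptic genes were left and 18 were at least 2-fold higher. Of all genes, 12762 were left under this filter and 2092 were at least 2-fold higher. Scaling on the array median moved the median of all genes from -0.09 to -0.20. Of 466 values of single genes, 60 moved past their software SD or across 2-fold. No paired analysis was possible because each group has 1 array, and for the same reason no replicate could be left out. Dim members on day 0, such as Syn2, Rab3c, Nrxn3 and Nlgn1, have only lower bounds, which were smaller with both other background corrections.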

Other observations

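Member probes designed on a RefSeq mRNA accession were well above background on at least 1 array more often than the rest. This held for 53 of 63 such probes (84.1%) and for 10 of 22 with another kind of accession (45.5%), against 78.5% and 56.2% of all gene probes. Both calls of lower members, Syt9 and Rims1, rest on 1 usable probe each, and that of Rims1 is of the second kind.

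The bright Syn1 probe has a GC content of 81.7%, which only 7 of all gene probes (0.0171%) reach or pass, and the dimmer Syn1 probe has 43.3%, the median of the member probes. The bright probe lies at chrX:19353787-19353846 and the dimmer one at chrX:19293917-19293976 (mm7, minus strand).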
